A study of Mus musculus with 16 samples.

Results

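The genes of the renin-angiotensin-aldosterone system measured here were Ren1, Agt, Ace, Enpep, Atp6ap2, Agtr1a, Agtr1b, Mas1 and Nr3c2. They were chosen by name for their place in the hormone system, and all 9 were present among the 24722 genes of the glomerular table and the 34264 genes of the cortex table. The libraries came from wild-type (WT) mice aged 24 weeks and were all of batch 1. Diabetic animals had been given HFD/STZ, a high-fat diet with streptozotocin, a toxin of the pancreatic beta cell, and the other animals are labelled as controls. RNA came from isolated glomeruli (the filtering tufts) or from renal cortex, which gave 4 groups of 4 libraries: diabetic glomeruli, control glomeruli, diabetic cortex and control cortex. The groups do not separate the diet, streptozotocin and the diabetic state, and the labels give neither strain nor sex. They do not say that the libraries were separate animals, so a p-value here measures how far these libraries scatter, which could be technical scatter alone.

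In this system renin, a protease released by juxtaglomerular cells in the wall of the arteriole that feeds the glomerulus, cuts angiotensinogen to angiotensin I, and angiotensin-converting enzyme cuts that to angiotensin II. Angiotensin II acts on the AT1 receptor to constrict vessels, retain sodium and, in the adrenal gland, release aldosterone, which acts in the distal nephron through the mineralocorticoid receptor. Peptidases such as aminopeptidase A break angiotensin II down, and the Mas receptor binds a shorter angiotensin peptide. In the kidney angiotensin II also feeds back on juxtaglomerular cells to lower renin, and drugs against the system are standard treatment of diabetic kidney disease.

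The genes of renin, its substrate and the converting enzyme share a promoter feature, and are shown here because their products make angiotensin II. Renin is encoded by Ren1 (chr1:133350510-133360325, plus strand), angiotensinogen by Agt (chr8:124556534-124569706, minus strand) and converting enzyme by Ace (chr11:105967945-105989964, plus strand), all as annotated on GRCm38. The stretches are the 250 bases before the start that RefSeq gives on GRCm38.p6, at chr1:133350424-133350673 for Ren1, chr8:124569707-124569956 for Agt and chr11:105967698-105967947 for the longer transcript of Ace. Each runs 5′ to 3′ on the strand of its gene, and capitals mark TATAAA read on either strand.
Ren1: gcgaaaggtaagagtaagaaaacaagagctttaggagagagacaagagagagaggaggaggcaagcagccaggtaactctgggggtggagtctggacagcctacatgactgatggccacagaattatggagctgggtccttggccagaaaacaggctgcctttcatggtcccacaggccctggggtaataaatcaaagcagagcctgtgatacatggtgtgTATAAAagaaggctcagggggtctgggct
Agt: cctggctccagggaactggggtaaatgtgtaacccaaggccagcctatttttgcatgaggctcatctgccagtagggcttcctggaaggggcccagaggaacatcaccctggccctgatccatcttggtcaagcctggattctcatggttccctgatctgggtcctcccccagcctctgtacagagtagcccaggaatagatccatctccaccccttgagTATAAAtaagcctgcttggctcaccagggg
Ace: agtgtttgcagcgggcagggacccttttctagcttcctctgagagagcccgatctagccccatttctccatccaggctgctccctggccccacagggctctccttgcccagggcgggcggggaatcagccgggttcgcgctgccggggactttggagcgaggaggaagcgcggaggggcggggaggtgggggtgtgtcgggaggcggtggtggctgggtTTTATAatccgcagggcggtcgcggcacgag
The word starts 29 bases before the start in Ren1, 30 in Agt and 31 in Ace, where it is on the reverse strand and so reads TTTATA. Agtr1b has it 31 bases before its start, and Enpep has it on the reverse strand 52 bases before. The second Ace promoter and those of Nr3c2, Mas1 and Atp6ap2 do not hold these letters. Of 32851 mouse promoters in the table, 12.4% hold TATAAA on either strand in this window. Of 2 other words searched on both strands, neither of which shares bases with these matches, TGACGT (in 6.47% of promoters) and TGTTCT (in 16.1%) were found only in Atp6ap2 among the members. A match is a description of the letters and not evidence of a bound factor. Agtr1a had no entry.

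The labelled tissues carried their defining markers. The 10 podocyte markers summed to 2239 to 4455 CPM (counts scaled to the same library total) in diabetic glomeruli, 4667 to 5851 CPM in control glomeruli, 326 to 371 CPM in diabetic cortex and 365 to 398 CPM in control cortex. The 10 proximal tubule markers summed to 70.0 to 801 CPM in diabetic glomeruli and 45.4 to 53.3 CPM in control glomeruli, against 11204 to 13309 CPM in diabetic cortex and 13658 to 18241 CPM in control cortex. In every diabetic glomerular sample the proximal sum was above, and the podocyte sum below, that of every control sample. In 2 glomerular pairs (diabetic libraries 1 and 4, control libraries 3 and 4) the counts differed far less than in any other pair of their group, with a chi-square per gene of 5.36 and 2.39 against at least 50.4 and 35.0. Each pair was summed and counted as 1 sample, which left 3 diabetic and 3 control glomerular samples. Diabetic glomerular libraries had 36339294 to 40696477 counts and control ones 40001932 to 41876031. In the cortex the ranges were 60628981 to 72352656 for diabetic and 57473100 to 69947387 for control libraries. In bulk RNA, fewer cells of a type and less RNA per cell cannot be told apart.

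Levels between genes were compared per gene length, in the deposited FPKM (fragments scaled by gene length and library total). In diabetic glomeruli Enpep stood first at 97.1 ± 26.7 FPKM (SD, n = 3), followed by Atp6ap2 at 45.7 ± 6.83, Ren1 at 33.4 ± 19.2 and Agtr1a at 13.9 ± 4.46 FPKM. In control glomeruli the order was Enpep at 109 ± 14.0, Atp6ap2 at 40.5 ± 3.58, Agtr1a at 18.0 ± 0.94 and Ren1 at 13.3 ± 1.73 FPKM (SD, n = 3), and their ranges did not overlap. Glomeruli thus held mainly a peptidase that degrades angiotensin II, the renin receptor, the AT1a receptor and renin. Ace, Agt and Nr3c2 lay below 4 FPKM in every glomerular sample. In the cortex the upper ranks went to other members. Diabetic cortex had Agt first at 54.2 ± 11.0 FPKM (SD, n = 4), and control cortex had Ace first at 50.9 ± 2.44 FPKM (SD, n = 4). Below the first rank in diabetic cortex came Atp6ap2, Ace, Enpep and Ren1, whose neighbouring ranges overlapped, with means from 38.5 to 26.03 FPKM. In control cortex Atp6ap2 at 41.5 ± 2.02 FPKM stood apart in second place, and the ranges of Enpep, Agt and Ren1 overlapped. Agtr1a (12.1 and 14.9 FPKM in diabetic and control cortex), Nr3c2 (1.89 and 2.55 FPKM) and Mas1 (0.50 and 0.53 FPKM) followed in that order in both. Agtr1b was near 0 everywhere.

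**Figure D1:**
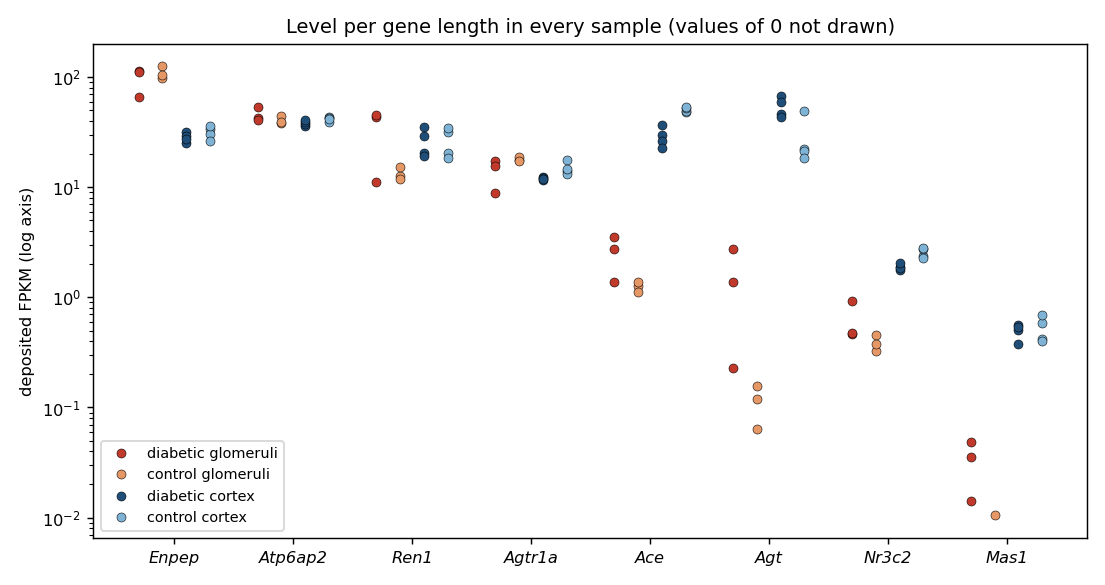
Deposited FPKM (log axis) of 8 members in every sample, with diabetic glomeruli, control glomeruli, diabetic cortex and control cortex from left to right for each gene. Enpep is above 66 FPKM in every glomerular sample, and Agt lies between 0.06 and 2.78 FPKM in glomeruli and above 18 FPKM in every cortex sample.

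In control mice the glomeruli and the cortex were compared to show how the members divide between the tissues. Of the 8 members tested in a model of all 4 groups (edgeR, Benjamini-Hochberg adjustment over 16486 genes, threshold 0.05), 1 was higher and 6 were lower in control glomeruli, where 38.7% and 39.7% of all genes tested were higher and lower. The 6 lower members include Mas1, which entered this model only through its counts in the cortex, where it was high, and this limits its call. Enpep was higher by 1.29 ± 0.17 on the log2 scale (SE, adjusted p = 1.01e-05). Agt was lower by 8.20 (log2 fold change -8.20 ± 0.79, adjusted p = 6.35e-07), and Ace had a log2 fold change of -5.68 ± 0.31 (adjusted p = 1.69e-09). Substrate and converting enzyme were therefore cortex transcripts in these controls. Mas1, which had enough counts in the cortex alone, had -5.64 ± 0.69, Nr3c2 -2.59 ± 0.24, Ren1 -1.53 ± 0.40 and Atp6ap2 -0.52 ± 0.10 (adjusted p = 4.86e-06, 2.56e-07, 0.00351 and 0.000382). Agtr1a differed by -0.26 ± 0.17 on the log2 scale, which did not pass (adjusted p = 0.166, and 0.034 without diabetic glomerular sample 3, which enters the estimate of the spread). The 2 tables were made on different annotations, so a level can differ between tissues for that reason too. On the deposited FPKM with limma, Ren1 (adjusted p = 0.0556 with 1 added before the logarithm) and Atp6ap2 (0.71) were no longer called, and the sign of Agtr1a turned to 0.27.

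Between diabetic and control mice, few members passed the test in glomeruli and more did in the cortex. In glomeruli 7 members had enough counts to be tested, and Agtr1b and Mas1 did not. Agt was higher, which is 1 of 7, where 19.4% of all 15238 genes tested were higher. It passed the filter on low counts through the diabetic samples, where it was high, which limits this call. The edgeR test called 0 members lower, where 18.2% of all genes were lower; Agtr1a was the 1 member lower at an unadjusted p under 0.05, and DESeq2 also called 1. The diabetic and control samples did not overlap for 2 of the 7 (Agt and Agtr1a), against 54.2% of all genes tested. In the cortex 8 members were tested. Ace, Agtr1a and Nr3c2 were lower, 3 of 8, where 9.29% of all 19228 genes were lower. The test called 0 higher, where 10.8% of all genes were higher; Agt was the 1 member higher at an unadjusted p under 0.05, and DESeq2 called 1. Groups did not overlap for these 3 lower genes, against 24.9% of all genes tested. The median log2 fold change of the members was 0.50 in glomeruli and -0.17 in the cortex, against 0.01 and 0.00 over all genes tested. Scaling by library totals in place of TMM moved the median of all glomerular genes to 0.20 and the share of higher genes among those called to 72.5% (51.6% with TMM).

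**Figure D2:**
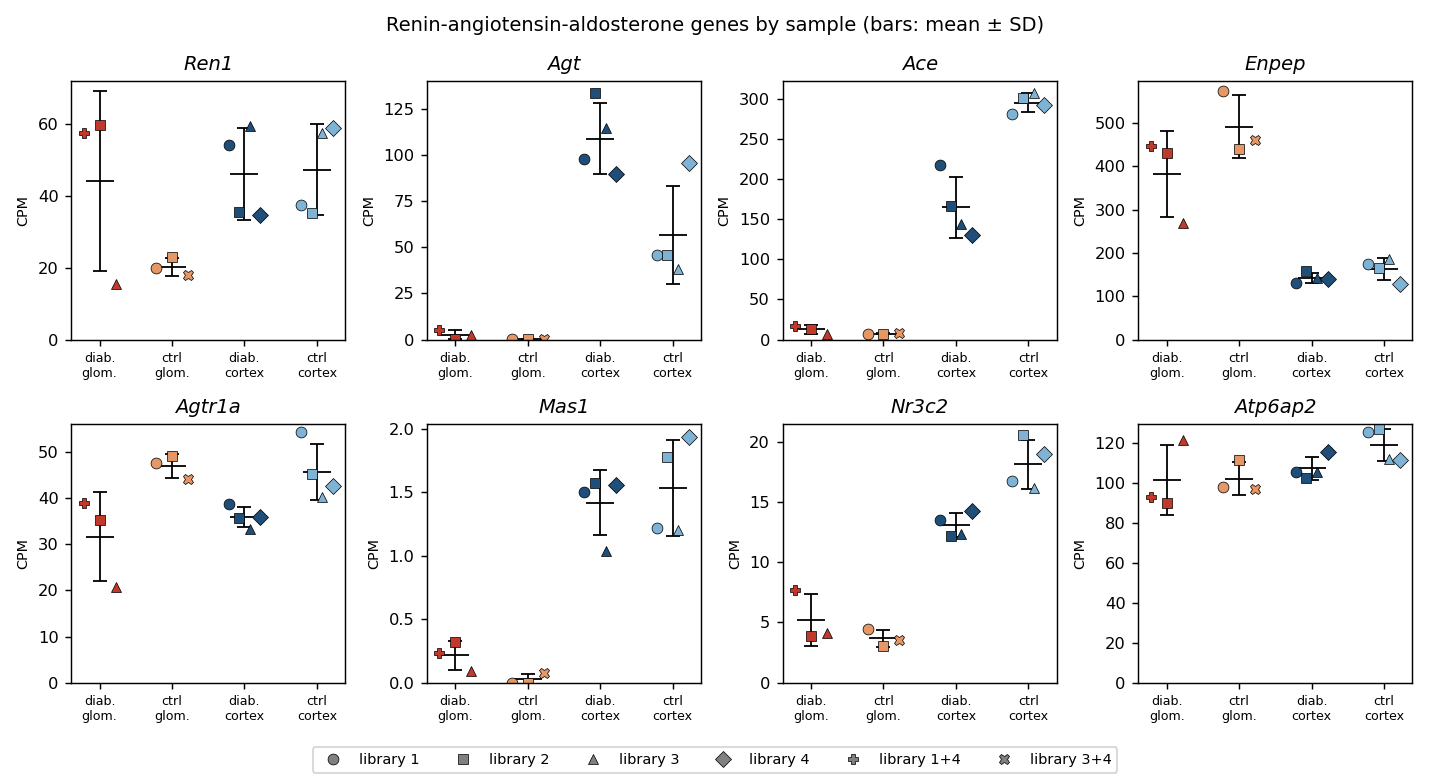
CPM of 8 members in every sample, with diabetic left of control for each tissue, 1 point per sample and the mean ± SD as bars. Ace and Nr3c2 of all diabetic cortex samples lie below all control cortex samples, and Ren1 is high in 2 of the 3 diabetic glomerular samples.

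Renin was raised in most but not all diabetic glomerular samples. Ren1 had 57.5, 59.8 and 15.3 CPM in diabetic glomeruli (libraries 1 and 4 together, 2 and 3), against 19.8, 22.9 and 17.8 CPM in control glomeruli (libraries 1, 2, and 3 and 4 together). Diabetic samples 1 and 4 together and 2 lay above every control, and diabetic sample 3 lay below every control, so the groups overlapped. The means were 44.2 ± 25.0 CPM in diabetic and 20.2 ± 2.57 CPM in control glomeruli (SD, n = 3 each). The log2 fold change of 1.13 ± 0.47 (SE) did not pass (edgeR adjusted p = 0.103). Without diabetic sample 3 it was 1.56 and passed (edgeR adjusted p = 0.00111). That was the only call among the 6 fits that left out 1 sample (0.153 to 0.25 in the others). With all samples DESeq2 called it (adjusted p = 0.028), as did edgeR with all libraries separate (0.0179) or a replicate block (0.033). It was not called by edgeR with library totals (0.0719) or no filter (0.237), or by limma on log2(FPKM + 1) (0.156) or log2(FPKM + 0.1) (0.146). In the cortex, which holds the juxtaglomerular cells as well, Ren1 had 54.2, 35.4, 59.5 and 34.8 CPM in diabetic samples 1 to 4, against 37.5, 35.2, 57.5 and 58.8 CPM in control samples 1 to 4. Both groups held low and high samples over the same range. There it had a log2 fold change of -0.04 ± 0.24 (adjusted p = 0.933). The labels do not give the strain, and reads of an additional near-identical renin gene that some mouse strains carry could not be told apart from Ren1.

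The genes that characterise renin cells and their control were called in both directions in diabetic glomeruli. Of 18 tested genes of the list of 20, 2 were higher and 5 were lower, where 19.4% and 18.2% of all genes tested were, with a median log2 fold change of -0.20. Pde3a, a phosphodiesterase that removes the cyclic AMP that drives renin release, had 38.8, 35.4 and 34.5 CPM in diabetic glomeruli, against 172, 119 and 218 CPM in control glomeruli (log2 fold change -2.23 ± 0.22, adjusted p = 0.000958). Adcy5, an adenylyl cyclase that makes cyclic AMP, had a log2 fold change of -1.98 ± 0.21 (adjusted p = 0.00125). Adcy6, another adenylyl cyclase of the list, had 134.5 ± 22.8 CPM in diabetic and 110.2 ± 6.36 CPM in control glomeruli (SD, n = 3 each) and did not pass (0.29 ± 0.13, adjusted p = 0.129). Ptger4, a prostaglandin E2 receptor, had -0.74 ± 0.10 (adjusted p = 0.00229). Foxd1, a transcription factor of the stromal lineage that gives rise to renin cells, had 41.2, 42.8 and 43.9 CPM in diabetic glomeruli, against 376, 114 and 234 CPM in control glomeruli (log2 fold change -2.50 ± 0.40, adjusted p = 0.0045). The controls of Foxd1 were scattered and the diabetic samples were not. Gja5, the gap junction protein connexin 40 of renin cells and endothelium, also fell (log2 fold change -1.01, adjusted p = 0.0331). The 2 higher genes were Casr, the calcium-sensing receptor, at 13.7, 2.51 and 7.01 CPM in diabetic glomeruli, against 0.70, 0.34 and 0.42 CPM in control glomeruli (4.00, adjusted p = 0.00545), and Prkg2, a cyclic GMP-dependent kinase (1.16, adjusted p = 0.023). Leaving out control sample 1, or control samples 3 and 4, ended the calls of Gja5 (adjusted p = 0.10 and 0.0883) and Prkg2 (0.0808 and 0.0629), and leaving out diabetic sample 2 also that of Gja5 (0.0702). With diabetic libraries 1, 3 and 4 left out, 2 of the 18 were higher and 3 were lower. Beside these, the 6 smooth muscle markers summed to 3459 to 6300 CPM in diabetic glomeruli, against 17630 to 20091 CPM in control glomeruli, with all 6 lower and none at 0. The 6 mesangial markers ranged from 585 to 670 CPM, summed, in diabetic and from 1113 to 1271 CPM in control glomeruli. The 11 distal nephron markers, from a part of the nephron that expresses Casr, summed to 1751, 76.0 and 797 CPM in the 3 diabetic samples, against 77.0, 57.5 and 61.1 CPM in the controls. The part of any of these markers' cells in the changes of the list was not tested.

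In the cortex all 20 genes of that list were tested, and 1 was higher and 2 were lower, where 10.8% and 9.29% of all genes tested were. Casr had 21.8, 20.3, 22.9 and 17.6 CPM in diabetic cortex, against 40.0, 34.8, 32.2 and 45.6 CPM in control cortex (log2 fold change -0.89 ± 0.12, adjusted p = 0.00125). Every diabetic sample lay below every control. Ptgs2, the inducible cyclooxygenase, which the macula densa uses to stimulate renin and which macrophages also express, was low in every cortex sample but higher in diabetes there. It had 1.02, 0.48, 2.27 and 1.43 CPM in diabetic cortex, against 0.21, 0.15, 0.12 and 0.59 CPM in control cortex (log2 fold change 2.26 ± 0.61, adjusted p = 0.0265). Its control levels alone would not have passed the filter on low counts, which it passed through the diabetic samples, and this limits the call. In the same samples 6 of 7 macrophage markers were higher, and they summed to 505 to 778 CPM in diabetic cortex, against 206 to 365 CPM in control cortex, with none at 0. Their part in the rise of Ptgs2 was not tested. Slc12a2, a sodium-potassium-chloride cotransporter, had a log2 fold change of -0.46 ± 0.12 (adjusted p = 0.0267). Gja5 had -0.58 ± 0.19 and did not pass (adjusted p = 0.0575). The call of Ptgs2 was lost without control 1, 2 or 3 or diabetic 3 or 4 (adjusted p from 0.0637 to 0.0837), and that of Slc12a2 without control 1, 2 or 3 or diabetic 2, 3 or 4 (0.0522 to 0.0797), whereas Casr was called in every fit that left out 1 sample. In glomeruli Ptgs2 had 189 to 364 CPM in diabetic and 141 to 632 CPM in control samples. Its log2 fold change there was -0.33 ± 0.56 and did not pass (edgeR adjusted p = 0.676).

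Angiotensinogen was higher in diabetic glomeruli, at low levels. Agt had 4.97, 0.41 and 2.57 CPM in diabetic glomeruli (samples 1 and 4 together, 2 and 3), against 0.13, 0.32 and 0.24 CPM in control glomeruli. The groups did not overlap, but diabetic sample 2 stood just above the highest control. The summed counts were 532 over the 4 diabetic libraries and 36 over the 4 control libraries. Agt passed the filter on low counts through the diabetic samples, and the control levels alone would not have passed. With no filter the log2 fold change was 3.48 (edgeR adjusted p = 0.0304). With the filter it was 3.51 ± 0.90 (SE, edgeR adjusted p = 0.0231). The call was lost on leaving out any of the 3 control samples (adjusted p = 0.0858, 0.051 and 0.0785) or diabetic samples 1 and 4 (0.0674), and with diabetic libraries 1, 3 and 4 left out the log2 fold change was 0.84 (0.457). The 10 proximal tubule markers, of the cells that make angiotensinogen in the kidney, summed to 801, 70.0 and 387 CPM in the 3 diabetic samples, against 47.5, 53.3 and 45.4 CPM in the controls, with none at 0. Lrp2, the proximal endocytic receptor megalin, had 121, 23.5 and 73.6 CPM in the diabetic samples, against 5.53, 6.91 and 5.15 CPM in the controls. The part of these markers' cells in the rise of Agt was not tested.

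In the cortex Agt was at 98.1, 134, 115 and 89.7 CPM in diabetic samples 1 to 4, against 46.1, 46.1, 38.3 and 96.1 CPM in control samples 1 to 4. Controls 1 to 3 lay well below every diabetic sample, and control 4 lay within the diabetic range. With edgeR, 0.94 ± 0.30 on the log2 scale did not pass (adjusted p = 0.0616). Without control 4 it was 1.32 (edgeR adjusted p = 0.000616), and with all samples DESeq2 (adjusted p = 0.0202) and limma on log2(FPKM + 1) (adjusted p = 0.0345) called it higher.

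Converting enzyme was lower in diabetic cortex, and in glomeruli it had the opposite sign. Ace had 218, 166, 144 and 130 CPM in diabetic cortex, against 280, 300.5, 307 and 292 CPM in control cortex. Every diabetic sample was below every control. Its log2 fold change was -0.84 ± 0.14 (adjusted p = 0.00345), and it was called in all 8 fits that left out 1 sample. Of the 10 proximal tubule markers 6 were lower in diabetic cortex as well (median log2 fold change -0.46), and every diabetic sample had a lower marker sum than every control. Their part in the fall of Ace was not tested. In glomeruli, where the level was far lower, Ace had 17.2, 13.5 and 7.05 CPM in diabetic samples, against 7.28, 6.27 and 7.71 CPM in control samples. Diabetic samples 1 and 4 together and 2 were above the controls and sample 3 was within them, the same samples as for Ren1. The log2 fold change of 0.83 ± 0.32 did not pass (adjusted p = 0.0805). Without diabetic sample 3 it was 1.14 (adjusted p = 0.00624). With diabetic libraries 1, 3 and 4 left out, which leaves 1 diabetic sample, it was 0.95. This alternative was chosen after seeing the data. The part of proximal tubule cells in the glomerular values of Ace was not tested. The antisense gene Gm11651 overlaps 17750 of the 22020 bases of Ace but had at most 0.10 CPM in any sample.

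Of the other angiotensin pathway genes, 10 of 15 had enough counts in each tissue. In diabetic glomeruli 3 were higher and 1 was lower, where 19.4% and 18.2% of all genes tested were, with a median log2 fold change of 0.28. Nln (neurolysin) and Prep (prolyl endopeptidase), peptidases that can act on angiotensin peptides, had log2 fold changes of 0.67 ± 0.10 and 0.50 ± 0.08 (adjusted p = 0.00309 and 0.0052). Klk1, tissue kallikrein of the distal nephron, had 3.71 (adjusted p = 0.0237), and its call was lost without any of the 3 control samples (adjusted p = 0.0654 to 0.0841) or without diabetic samples 1 and 4 (0.064). Ctsa, the lysosomal carboxypeptidase cathepsin A, was the lower gene, at 161, 145 and 218 CPM in diabetic glomeruli, against 325, 353 and 308 CPM in control glomeruli (-0.91 ± 0.16, adjusted p = 0.00616). With diabetic libraries 1, 3 and 4 left out, 1 of the 10 was higher and 2 were lower. In diabetic cortex 0 of the 10 were higher and 1 was lower in the edgeR test (0 higher at an unadjusted p under 0.05 and 0 with DESeq2). Klk1 had 1222, 1023, 1138 and 1152 CPM in diabetic cortex, against 1898, 1978, 1662 and 1174 CPM in control cortex (-0.57 ± 0.15, adjusted p = 0.0238). Its call was lost without control 1, 2 or 3 or diabetic 2, 3 or 4 (adjusted p = 0.0507 to 0.0741). Lnpep, the angiotensin IV receptor, and Prep had log2 fold changes of -0.16 each there (adjusted p = 0.0872 and 0.125).

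Aminopeptidase A, encoded by Enpep (chr3:129269175-129332720, minus strand), had the highest level per length of all members in glomeruli, where podocytes carry it. It had 446, 431 and 268 CPM in diabetic glomeruli, against 574, 439 and 461 CPM in control glomeruli. Diabetic sample 3 was the low one. Nphs1, the podocyte slit diaphragm protein nephrin, was lowest in that sample too, at 358, 324 and 161 CPM in diabetic samples and 304, 333 and 253 CPM in controls. The log2 fold change of Enpep was -0.36 ± 0.21 (adjusted p = 0.224). In the cortex it had 131, 158, 142 and 139 CPM in diabetic samples, against 175, 165, 185 and 128 CPM in control samples (-0.19 ± 0.11, adjusted p = 0.245). Only control 4 lay below the diabetic samples, and without it the log2 fold change was -0.29 (adjusted p = 0.012).

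The main angiotensin II receptor was lower in diabetes in the cortex, with the same direction in glomeruli. Agtr1a (chr13:30336441-30382867, plus strand) had 38.7, 35.6, 33.3 and 35.9 CPM in diabetic cortex, against 54.3, 45.1, 40.3 and 42.6 CPM in control cortex. The groups did not overlap, and the log2 fold change was -0.34 ± 0.09 (adjusted p = 0.0262). The call was lost without control 1, control 2, diabetic 2, diabetic 3 or diabetic 4 (adjusted p = 0.052, 0.0542, 0.0682, 0.0802 and 0.0653). In glomeruli it had 38.9, 35.2 and 20.7 CPM in diabetic samples, against 47.5, 49.1 and 44.1 CPM in control samples. These groups did not overlap either, and the log2 fold change of -0.57 ± 0.22 did not pass (adjusted p = 0.0893). The fall there was largest in diabetic sample 3, and without it the log2 fold change was -0.32 (adjusted p = 0.0458). The mesangial and smooth muscle markers, cells that carry the AT1 receptor, were lower in all 3 diabetic samples as given above, and their part was not tested.

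Mice have a second AT1 gene, Agtr1b (chr3:20314473-20367177, minus strand), which was almost silent in all groups. Its 4 libraries together held 1 count in diabetic glomeruli, 8 in control glomeruli, 4 in diabetic cortex and 7 in control cortex, and in 11 of the 16 libraries it was at 0, which allows up to 3 counts. No fold change is given. The coding sequences of the receptors, each 1080 bases long, differ at 99 bases (90.8% identity). The following 60 coding bases (964 to 1023, counted from the start codon, from the transcripts on GRCm38) are the stretch with the most differences, and capitals mark the 13 bases that differ.
Agtr1a: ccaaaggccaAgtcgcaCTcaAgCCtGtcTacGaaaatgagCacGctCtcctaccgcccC
Agtr1b: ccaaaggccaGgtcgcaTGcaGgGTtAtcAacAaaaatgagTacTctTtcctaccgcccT
Of all stretches of 50 bases, 1.54% of those of the Agtr1b transcript also occur in Agtr1a. A read of that length would therefore rarely fit both genes.

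The Mas receptor of angiotensin 1-7 was a rare transcript. Mas1 (chr17:12841079-12868143, minus strand) had 1.502, 1.57, 1.03 and 1.55 CPM in diabetic cortex, against 1.22, 1.78, 1.20 and 1.94 CPM in control cortex. The ranges overlapped, and the log2 fold change was -0.11 ± 0.25 (adjusted p = 0.796). In glomeruli it was too low to be tested alone, with 12, 14, 4 and 7 counts in diabetic libraries 1 to 4, against 0, 0, 0 and 6 counts in control libraries 1 to 4. Every diabetic library had reads and 3 of the 4 controls had none. The antisense gene Airn overlaps 19058 of the 27065 bases of Mas1. Airn itself had 1.33, 1.03 and 1.05 CPM in diabetic glomeruli, against 0.27, 0.85 and 0.69 CPM in control glomeruli. Whether counting used strand is not given in the sources used here, so reads of the pair could not be told apart.

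The renin receptor did not pass the test in either tissue. Atp6ap2 (chrX:12587801-12617049, plus strand), an accessory subunit of the vacuolar proton pump that also binds prorenin, had 93.3, 90.2 and 122 CPM in diabetic glomeruli, against 98.1, 112 and 97.2 CPM in control glomeruli. The ranges overlapped, and the log2 fold change was -0.01 ± 0.14 (adjusted p = 0.967), which became 0.18 with library totals. In the cortex it had 106, 103, 106 and 116 CPM in diabetic samples, against 125, 127, 112 and 112 CPM in control samples (-0.15 ± 0.07, adjusted p = 0.142). Neither difference passed, which does not show that the levels were equal.

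The mineralocorticoid receptor was lower in diabetic cortex. Nr3c2 (chr8:76899442-77245012, plus strand), the receptor through which aldosterone drives sodium uptake in the distal nephron, had 13.5, 12.2, 12.4 and 14.3 CPM in diabetic cortex, against 16.8, 20.6, 16.2 and 19.0 CPM in control cortex. No diabetic sample reached the lowest control. The log2 fold change was -0.47 ± 0.10 (adjusted p = 0.00934), and it was called in all 8 fits that left out 1 sample. In glomeruli it had 7.65, 3.86 and 4.10 CPM in diabetic samples, against 4.46, 3.07 and 3.56 CPM in control samples. Only diabetic samples 1 and 4 together stood above all controls, and the log2 fold change of 0.50 ± 0.32 did not pass (adjusted p = 0.264).

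Of the genes that act with or after the mineralocorticoid receptor, some were called in each tissue, mostly lower in diabetic cortex and mostly higher in diabetic glomeruli. All 21 genes of the list were tested in both tissues. In the cortex 7 were lower, 1 was higher and 13 did not pass, where 9.29% of all genes tested were lower and 10.8% higher. The median log2 fold change of the list was -0.23. Scnn1g and Scnn1b, subunits of the epithelial sodium channel, had log2 fold changes of -0.51 ± 0.09 and -0.38 ± 0.07 (adjusted p = 0.00401 and 0.00573). Hsd11b2, the enzyme that shields the receptor from glucocorticoids, was at 109, 90.3, 103 and 95.0 CPM in diabetic cortex, against 132, 131, 130 and 118 CPM in control cortex (-0.37, adjusted p = 0.00643). Scnn1a, the other subunit on the list, had -0.21 and did not pass (adjusted p = 0.0966). Ndrg2, an aldosterone-induced gene, had -0.64 ± 0.09 (adjusted p = 0.00125), and Nr3c1, the glucocorticoid receptor, had -0.48 ± 0.09 (adjusted p = 0.00516). The higher gene was Per1, a clock gene that corticosteroids induce, at 126, 75.8, 103 and 120 CPM in diabetic cortex, against 41.4, 48.3, 56.8 and 76.6 CPM in control cortex (0.93, adjusted p = 0.02). It was no longer called without control 2 or diabetic 4 (adjusted p = 0.056 and 0.0562). Sgk1, the kinase often read as an aldosterone response, was not called in the cortex. The 11 distal nephron markers summed to 5008 to 6490 CPM in diabetic cortex, against 5412 to 8998 CPM in control cortex, with 4 lower, 1 higher and none at 0. Their part was not tested.

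In glomeruli 12 of the 21 were higher, 2 were lower and 7 did not pass, where 19.4% and 18.2% of all genes tested were higher and lower. The 12 include Scnn1g, at 1.39 to 9.56 CPM in diabetic and 0.11 to 0.48 CPM in control glomeruli. Scnn1g passed the filter on low counts through the diabetic samples, where it was high, which limits that call. The median log2 fold change of the list was 1.17. Scnn1a had 71.4, 27.1 and 35.8 CPM in diabetic glomeruli, against 1.72, 1.88 and 2.07 CPM in control glomeruli (4.56 ± 0.41, adjusted p = 0.000776). Hsd11b2 had 34.5, 15.9 and 38.9 CPM in diabetic glomeruli, against 2.04, 2.54 and 1.48 CPM in control glomeruli (3.90 ± 0.40, adjusted p = 0.00109). Both are collecting duct transcripts and were high in all 3 diabetic samples, which did not hold for all such transcripts. The water channels Aqp2 and Aqp3, of the distal markers, overlapped the controls. Their lowest diabetic values were 1.67 and 0.55 CPM, against control ranges of 1.38 to 1.72 and 0.78 to 0.79 CPM. The vasopressin receptor Avpr2 did not overlap, at 1.21 to 3.15 CPM in diabetic and 0.03 to 0.16 CPM in control glomeruli. Nedd4l, the ubiquitin ligase that removes the channel, had 1.00 ± 0.11 and Ndrg2 2.10 ± 0.32 (adjusted p = 0.00119 and 0.00389). The lower genes were Sgk1 (-0.77, adjusted p = 0.0194) and Nr3c1 (-0.60, adjusted p = 0.0215). Without diabetic samples 1 and 4, or without diabetic 2, neither was called (adjusted p from 0.0607 to 0.0961), nor was Sgk1 without control 1 (0.0569) or Nr3c1 without diabetic 3 (0.0638). The distal nephron markers summed to 1751, 76.0 and 797 CPM in the 3 diabetic samples, against 77.0, 57.5 and 61.1 CPM in the controls, and their part was not tested. Umod, the uromodulin of the thick ascending limb, had 642, 30.3 and 296 CPM in diabetic samples, against 29.3, 21.96 and 24.2 CPM in controls. With diabetic libraries 1, 3 and 4 left out, 6 of the 21 were called, all of them higher. Slc12a3 is on both lists.

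**Figure D3:**
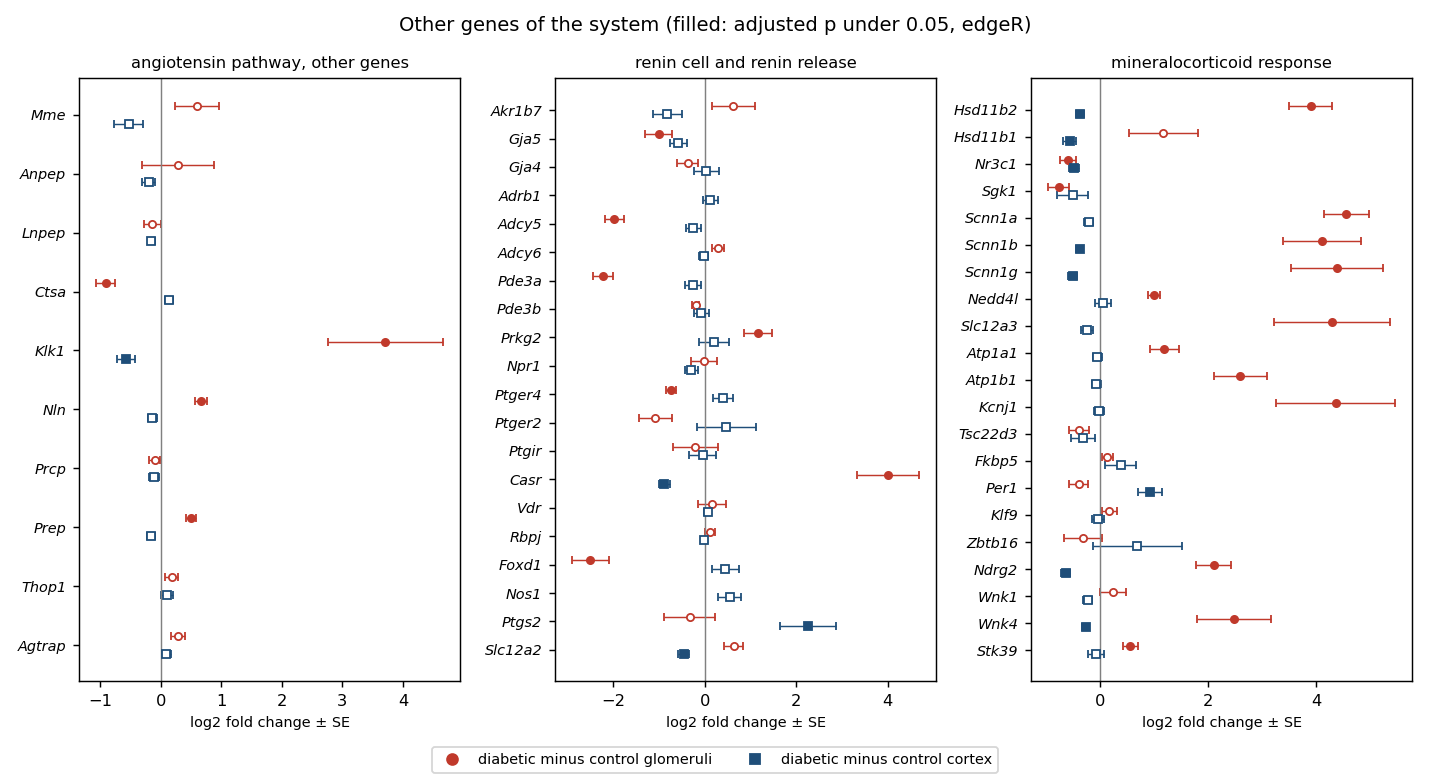
Log2 fold change ± SE of the other genes of the system, diabetic minus control, in glomeruli (circles) and cortex (squares), filled where the edgeR adjusted p is under 0.05. In the mineralocorticoid response list 12 genes are higher in diabetic glomeruli, and 7 are lower in diabetic cortex. The 12 include Scnn1g, which passed the filter on low counts through the diabetic samples.

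Genes of aldosterone synthesis, which belongs to the adrenal gland, were at low levels. The 5 genes of the list present in each tissue's table summed to 2.23 to 6.02 CPM per sample. Of the list of 7, 3 were tested in each tissue. Cyp21a1, steroid 21-hydroxylase, had 0.53, 0.39 and 0.31 CPM in diabetic glomeruli, against 0 in all control glomerular samples. It passed the filter on low counts through the diabetic samples alone, so no test of it is given. Star, the cholesterol carrier, had 1.04, 1.19 and 1.10 CPM in diabetic glomeruli, against 0.56, 1.09 and 0.69 CPM in control glomeruli, and did not pass (adjusted p = 0.256). Cyp11b1, steroid 11-beta-hydroxylase, had at most 3.39 CPM in any glomerular sample. In the cortex Star had 2.36 to 4.87 CPM in diabetic and 3.74 to 5.00 CPM in control samples (edgeR adjusted p = 0.597). There edgeR called 0 genes of the list, with 0 at an unadjusted p under 0.05 and 0 with DESeq2.

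The diabetic effect differed between the tissues for 4 of the 8 members tested. The difference of the log2 fold changes, glomeruli minus cortex, was positive and called for these 4 (or 3 of 7 without Mas1, which entered this model only through its counts in the cortex), where 18.8% of all 16486 genes were called in that direction, and 0 were called negative, where 16.3% of all genes were. No member was negative at an unadjusted p under 0.05, and DESeq2 called 0 too. Ace had the difference with the smallest p among them, 1.68 ± 0.34 (adjusted p = 0.00243), and it was called in all 14 fits that left out 1 sample. Nr3c2 had 0.98 ± 0.31 (adjusted p = 0.0257), which was lost with diabetic glomerular libraries 1, 3 and 4 left out (0.49, adjusted p = 0.202) and without control glomerular sample 2 (adjusted p = 0.0654), control samples 3 and 4 (0.0521) or diabetic samples 1 and 4 (0.0724). Agt had 2.62 ± 0.94 (adjusted p = 0.0476), which was kept only without diabetic glomerular sample 2 or control cortex sample 3 among those 14 fits, and was -0.18 with diabetic libraries 1, 3 and 4 left out. Mas1 had 2.65 ± 0.86 (adjusted p = 0.029), a value that rests on the few glomerular counts given above. It was lost without control glomerular sample 1 (adjusted p = 0.0631), control 2 (0.0576), diabetic samples 1 and 4 (0.063) or diabetic 2 (0.0714). Ren1 (1.18 ± 0.54, adjusted p = 0.112, but 1.57 and 0.00422 without diabetic glomerular sample 3), Agtr1a (-0.22 ± 0.24), Atp6ap2 (0.15 ± 0.14) and Enpep (-0.17 ± 0.24) did not pass. With library totals the share of positive genes among all those called was 69.0% (53.6% with TMM).

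**Figure D4:**
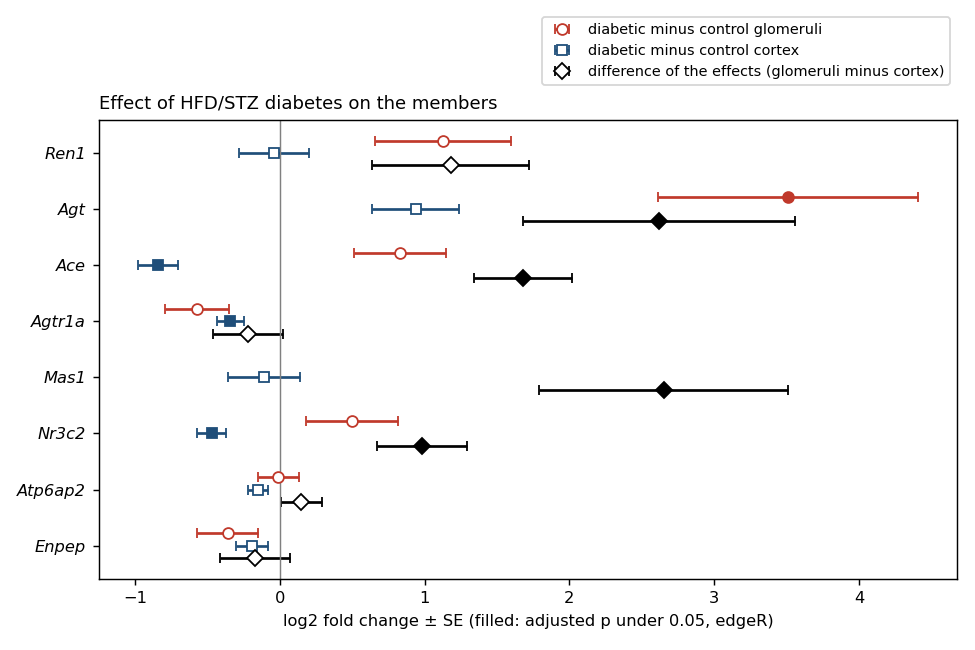
Log2 fold change ± SE of 8 members, diabetic minus control, in glomeruli (circles) and cortex (squares), and the difference of these effects (diamonds), filled where the edgeR adjusted p is under 0.05. Ace has -0.84 in the cortex and a difference of 1.68, and Mas1 was not tested in glomeruli alone.

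The 3 diabetic glomerular samples were also set against the cortex directly, as the level above the mean of control glomeruli in percent of the mean of diabetic cortex. For the proximal tubule markers the median was 6.15% in samples 1 and 4 together, 0.0085% in sample 2 and 2.89% in sample 3. Distal nephron markers had medians of 19.3%, 0.0687% and 9.12%. Agt followed the proximal order at 3.60%, 0.128% and 1.76%, within the range of the single proximal markers in samples 1 and 4 together (0.297% to 15.4%). Ace did not follow it, at 5.14%, 3.03% and -0.00254%. In sample 2 it lay above the highest proximal marker (0.958%), and in sample 3 below the lowest (0.0852%). Nr3c2 had 25.5%, 0.493% and 2.61%, and in sample 3 it lay below the lowest distal marker (2.98%). Klk1 had 33.1%, 0.267% and 15.3%, inside the range of the distal markers in each sample. Ren1 had 67.9%, 67.9% and -8.40%. These values are a description, and the part of tubule cells in any of them was not tested.

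**Figure D5:**
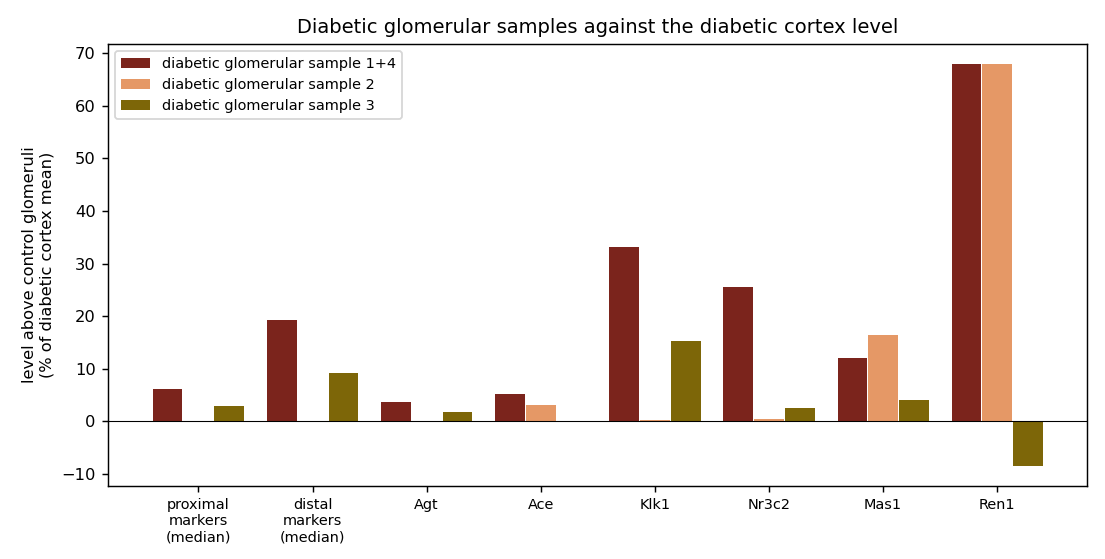
Level above the mean of control glomeruli, in percent of the diabetic cortex mean, for the medians of the proximal (10) and distal (11) markers and for 6 genes, with 1 bar per diabetic glomerular sample. Agt, Klk1 and the marker medians are low in sample 2, and Ren1 is at 67.9% in sample 2 and below 0 in sample 3.

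Across the 14 samples, after the mean of each tissue was subtracted, the genes most alike each member in log2 CPM were listed as a description with no test, among 12308 genes that share libraries, depth and tissue composition. Ren1 was most like Tead4 (Pearson r = 0.919), Sorbs2 (0.896) and Gpihbp1 (0.855). Agt was most like Fga (0.977), Cyp4a10 (0.971) and Slc5a10 (0.971). Ace had Arhgap32 (0.942), D2hgdh (0.933) and Dlat (0.932), and Nr3c2 had Idh2 (0.947), Cecr2 (0.912) and Hsd11b1 (0.906). For Agtr1a these were Myom2 (0.954), Mfn2 (0.930) and Epas1 (0.926), for Enpep Rdh1 (0.936), Btbd2 (0.904) and 1700037C18Rik (0.887), and for Atp6ap2 Ptgr1 (0.846), Fam69a (0.839) and Trim8 (0.820). Among the members themselves the closest pairs were Agtr1a with Enpep (0.784) and Ace with Nr3c2 (0.763), while Ren1 and Atp6ap2 ran opposite (-0.652).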

How the data were processed

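Per the labels' protocols, a Qiagen RNeasy Plus kit gave the RNA and a SMARTER mRNA-Seq kit the libraries. Builds named in the submitters' processing notes are GRCm38 and mm10, whereas for the aligner, counter, annotation and strand setting the sources used here give nothing. The authors deposited raw read counts per gene symbol for glomeruli. The deposited cortex values are, judged by how they relate to FPKM, estimated counts that the authors rounded, and they were used unchanged. The deposited FPKM values of both tissues, which the authors divided by gene length and library size, served for levels between genes and as an alternative.

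Symbols and positions came from GENCODE on GRCm38. Direct matches covered 19765 glomerular symbols and synonyms another 295, which left 4662 unmatched (4.11% of counts), and 31953 of the cortex identifiers matched. The tables joined at 19015 genes. Genes were tested with edgeR 4.0.16 in R 4.3.3 (filterByExpr, TMM, robust quasi-likelihood fit, two-sided, Benjamini-Hochberg adjustment over all genes tested, threshold 0.05). Each tissue was fitted alone, and the difference of effects and the tissue contrast came from 1 model of the 4 groups. The procedure was tested on simulated data. Fold changes are log2 of CPM on TMM-scaled totals, computed here from the deposited counts. Glomerular libraries whose chi-square per gene lay more than 5 times below every other pair of their group were summed. Alternatives were library totals, DESeq2 1.42.0, no filter, limma 3.58.1 on log2(FPKM + 1) and log2(FPKM + 0.1), separate libraries, a replicate block and leaving out samples. The replicate numbers did not pair the samples: same-numbered samples correlated at -0.154 to 0.0747.

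The members, the gene lists and the summing of libraries were chosen with earlier results of these data known. Other genes named were, per pathway list and tissue, up to 4 with the smallest adjusted p, the 3 most alike genes per member (mean log2 CPM of at least 1, prior count 2), and Lrp2, Umod and Nphs1. Klk1, Casr, Prkg2, Gja5, Hsd11b2, Per1, Sgk1, Nr3c1, Adcy6, Scnn1a, Aqp2, Aqp3, Avpr2 and Airn were also named after their values were seen, where the rule did not already name them. 1 gene of the angiotensin pathway list is not reported here and is left out of that list's counts. Counts of 0 allow up to 3 counts, which covers counting error only. Promoters came from RefSeq on GRCm38.p6 and matched 8 of the 9 members.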

Additional observations from a re-analysis of the deposited data

Results flagged for a closer look

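Of 16 member-by-group sets of 4 cortex samples tested for a sample far from the others, 2 held one, where chance gives about 1 in 20. In control cortex, sample 4 had 96.1 CPM of Agt, against 38.3 to 46.1 CPM in the other 3 samples. In diabetic cortex, sample 3 had 1.03 CPM of Mas1, against 1.502 to 1.57 CPM in the other 3.

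The diabetic effect differed between glomeruli and cortex, by the test of the difference itself in edgeR, for 4 members. On the log2 scale, glomeruli minus cortex, the difference was 1.68 for Ace (adjusted p = 0.00243), 2.62 for Agt (adjusted p = 0.0476), 2.65 for Mas1 (adjusted p = 0.029) and 0.98 for Nr3c2 (adjusted p = 0.0257). Mas1 entered this model only through its counts in the cortex and was too low to be tested in glomeruli, where the control libraries had 0, 0, 0 and 6 counts. For Ace and Nr3c2 the log2 fold changes had opposite signs in the tissues, 0.83 and -0.84 for Ace and 0.50 and -0.47 for Nr3c2 in glomeruli and cortex, and for both only the cortex value passed its own test.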

How the results depend on the processing

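The comparison of the tissues in control mice gave 1 member higher under every alternative run, and 4 (both FPKM fits) to 7 lower, against 6 with the chosen settings, and the 3 members called lower in diabetic cortex ranged from 2 to 4. Members called higher in diabetic glomeruli, 1 with the chosen settings, were 2 with library totals, 3 with DESeq2, 0 with limma on log2(FPKM + 1), 3 with all libraries separate, 3 with the replicate block, 2 with diabetic glomerular libraries 1, 3 and 4 left out (an alternative chosen after seeing the data), and 0 to 3 when 1 sample was left out. Members called lower there, 0 with the chosen settings, were 1 with DESeq2, 1 with the replicate block and 0 to 1 when 1 sample was left out. Members called higher in diabetic cortex, 0 with the chosen settings, were 1 with DESeq2, 1 with limma on log2(FPKM + 1), 1 with log2(FPKM + 0.1) and 0 to 1 when 1 sample was left out. Of the 4 members with a called positive difference of effects, 2 were left with each FPKM fit, 2 with the replicate block and 1 to 4 when 1 sample was left out. The difference for Agt reversed to -0.03 with log2(FPKM + 1) and to -0.18 with diabetic libraries 1, 3 and 4 left out. Of the pathway genes named by list, 26 were called in glomeruli and 12 in the cortex, 16 and 7 of these in every fit that left out 1 sample, and 0 reversed under any alternative. Both glomerular counts, 26 and 16, include Cyp21a1, which passed the filter through the diabetic samples alone and is not read as a tested gene. They also include Scnn1g, which passed that filter through the diabetic samples as well. Beyond the smaller number of samples in the last 2 kinds of alternative, the cause was not tested. Leaving 1 diabetic glomerular sample assumes that it varies like the controls. At these depths Agtr1b, and Mas1 in glomeruli, were too low to compare.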
